A study of Mus musculus with 6 samples.

Results

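The genes described are 45 interferon-stimulated genes and interferon receptors listed by name and role. They comprise 13 targets known best for induction by interferon-gamma (the guanylate-binding protein genes Gbp2, Gbp2b, Gbp3, Gbp4, Gbp5, Gbp6 and Gbp7, the immunity-related GTPase genes Igtp, Irgm1, Irgm2 and Iigp1, and the transcription factor genes Irf1 and Irf8), 28 targets known best for induction by type I interferon, and the 4 receptor chains Ifnar1, Ifnar2, Ifngr1 and Ifngr2. Of the 45 genes, 39 were measured by a probe set listed with that gene symbol alone, out of 19938 genes measured in this way on the array. They were 9 of the 13 interferon-gamma targets, 26 of the 28 type I targets and all 4 receptors. Gbp2 shares its probe set with Gbp2b, Gbp6 shares its with other Gbp genes, Igtp and Irgm2 share 1 probe set, and Isg15 shares its with Gm9706. No probe set was listed with Ifi44, and no value is given for these 6 genes.

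RNA came from the livers of male mice aged 12 weeks on the C57BL/6J background, which received no treatment. The 3 ARSB-null mice were homozygous for loss of arylsulfatase B (N-acetylgalactosamine-4-sulfatase), the lysosomal enzyme that removes 4-sulfate groups from chondroitin 4-sulfate and dermatan sulfate. The 3 control mice carried no such loss. Enzyme deficiency in ARSB-null animals is present in every cell and from conception, and the null colony was bred from heterozygous founders. The labels do not say that the controls were littermates, so genotype and breeding line cannot be told apart. Each array held total RNA of 1 liver on an Affymetrix mouse gene array, and the arrays carry the numbers 4, 5 and 6 in each group. The p-values below measure the spread between these 6 mice.

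Interferons are secreted proteins that act through the paired receptor chains Ifnar1 and Ifnar2 (type I) or Ifngr1 and Ifngr2 (interferon-gamma). Type I signals assemble a complex that includes Stat2 and Irf9 and binds interferon-stimulated response elements (ISRE), whereas interferon-gamma acts through gamma-activated sites (GAS). In liver, both hepatocytes and Kupffer cells, the resident macrophages, respond with genes that sense viral RNA, block viral replication and attack pathogens inside vacuoles.

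In the arrays, Arsb read 7.63, 7.46 and 7.64 in ARSB-null mice 4, 5 and 6, and 10.21, 10.23 and 10.21 in control mice 4, 5 and 6, on the log2 scale used throughout. This was 6.23-fold lower (95% interval 5.30 to 7.32, adjusted p = 0.000639, limma), in the direction the labels give. The median signal of the arrays lay between 6.50 and 6.60. Both arrays numbered 4 stood apart on the first principal component of the 21789 probe sets with 1 gene symbol (39.7% of the variance). The genotypes separated on the second component (27.1%). Values without both of these arrays are given beside some results. Results printed without such a value can also move when these arrays are left out.

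The sequence around the start site is shown for 4 members whose promoters hold a match to a response element. In Gbp2b and Rsad2 every ARSB-null value lay below every control value, and in Gbp5 and Ifit1 the groups overlapped. Each run has 300 bases, 250 before the RefSeq start of the gene and 50 after it, in the direction of transcription on GRCm38.p6. Gbp2b lies at chr3:142594597-142594896 on the plus strand and Gbp5 at chr3:142496684-142496983 on the plus strand. Rsad2 lies at chr12:26456403-26456702 on the minus strand and Ifit1 at chr19:34640639-34640938 on the plus strand. Capitals mark matches to the ISRE core GAAANNGAAA or to the GAS core TTCNNNGAA, searched on both strands.
Gbp2b: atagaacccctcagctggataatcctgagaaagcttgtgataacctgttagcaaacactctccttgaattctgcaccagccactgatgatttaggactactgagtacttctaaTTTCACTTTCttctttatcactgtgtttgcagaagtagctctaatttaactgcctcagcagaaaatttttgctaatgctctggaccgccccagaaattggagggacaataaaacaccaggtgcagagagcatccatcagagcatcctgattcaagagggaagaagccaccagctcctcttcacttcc
Gbp5: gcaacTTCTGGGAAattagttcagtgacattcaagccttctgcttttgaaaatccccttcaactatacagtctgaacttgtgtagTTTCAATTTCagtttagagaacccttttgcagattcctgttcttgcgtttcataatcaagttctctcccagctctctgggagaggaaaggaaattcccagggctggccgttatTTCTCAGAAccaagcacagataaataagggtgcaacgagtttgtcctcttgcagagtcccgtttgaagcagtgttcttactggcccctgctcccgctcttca
Rsad2: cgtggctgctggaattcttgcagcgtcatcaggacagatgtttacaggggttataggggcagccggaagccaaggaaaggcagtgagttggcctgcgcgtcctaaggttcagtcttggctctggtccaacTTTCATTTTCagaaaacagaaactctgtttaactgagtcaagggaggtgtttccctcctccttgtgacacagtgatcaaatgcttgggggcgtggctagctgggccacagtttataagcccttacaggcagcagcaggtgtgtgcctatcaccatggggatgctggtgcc
Ifit1: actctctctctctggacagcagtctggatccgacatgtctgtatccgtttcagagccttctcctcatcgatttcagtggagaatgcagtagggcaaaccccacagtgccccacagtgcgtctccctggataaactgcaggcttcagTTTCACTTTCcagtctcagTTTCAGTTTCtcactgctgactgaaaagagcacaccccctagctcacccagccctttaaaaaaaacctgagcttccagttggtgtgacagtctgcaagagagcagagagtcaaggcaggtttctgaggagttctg

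Positions count from the start site, with -1 as the last base before it, and give the first base of the match. The ISRE core lay at -137 in Gbp2b, at -165 in Gbp5 and at -120 in Rsad2, in each case on the opposite strand. Ifit1 held 2 such cores, at -104 and -85. Gbp5 also held GAS cores at -245 and -52, and no GAS core was found in the printed window of Gbp2b. Oasl1 and Trim30a, whose groups also did not overlap, are not printed. The window of Oasl1 held neither core, and both windows of Trim30a held an ISRE core. RefSeq promoters were matched for 33 of the 45 genes, which have 39 promoters in the table. The ISRE core was present in 8 of 13 promoters of interferon-gamma targets (61.5%) and in 12 of 22 promoters of type I targets (54.5%), against 3.44% of all 32851 promoters of the same length. It was found in none of the 4 receptor promoters. The GAS core was present in 6 of the 13 interferon-gamma target promoters (46.2%), 4 of the 22 type I target promoters (18.2%) and 2 of the 4 receptor promoters (50%), against 8.3% of all promoters. In some members matches overlapped each other, and in Bst2 an ISRE match overlapped a GAS match. A match is a run of letters and not a measured binding site.

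Among the interferon-gamma targets, Gbp2b stood apart from its family. It read lower in ARSB-null liver, while the mean differences of the other 4 measured Gbp members lay between 0.01 and 0.23. Its product, formerly named Gbp1, is a large GTPase that assembles on pathogen vacuoles. Gbp2b read 5.25, 5.12 and 5.50 in ARSB-null mice 4, 5 and 6, and 6.38, 6.30 and 6.16 in the controls in the same order. Every ARSB-null value was below every control value. The ARSB-null mean was 5.29 ± 0.19 (SD, n = 3) against a control mean of 6.28 ± 0.11 (SD, n = 3), a difference of -0.99 (SE 0.13), or 1.99-fold lower (95% interval 1.60 to 2.46). By limma over all 35556 probe sets the unadjusted p was 0.000134 and the adjusted p 0.195, so the gene did not pass the threshold of 0.05. With the test restricted to the 21789 rows named by 1 symbol, the adjusted p of the same difference was 0.0198. The call for Gbp2b therefore depends on which probe sets are tested, whereas its log2 difference lay between -1.10 and -0.91 in all 16 settings that gave it a value. Its signal was dim, with every value below the median signal of the arrays (6.50 to 6.60). The setting kept to probe sets above the median signal gave it no value. An exact permutation test of its 3 against 3 values gave p = 0.1, two-sided, the smallest p this design allows. Gbp genes are close paralogs, and hybridization of related transcripts to the Gbp2b probe set was not tested.

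Gbp5, Gbp7 and Gbp3 lie next to Gbp2b on chromosome 3, in the order Gbp5, Gbp7, Gbp3, Gbp2b and Gbp2. Gbp5, which promotes inflammasome assembly, read 5.75, 6.12 and 6.00 in ARSB-null mice 4, 5 and 6, and 5.67, 5.94 and 5.68 in controls 4, 5 and 6. Its difference was 0.19 (95% interval -0.14 to 0.52, adjusted p = 0.970), and the groups overlapped. Gbp7 read 8.25, 8.71 and 8.64 in the ARSB-null mice and 8.57, 8.59 and 8.40 in the controls. Gbp3 read 6.88, 7.50 and 7.28 against 7.12, 7.30 and 7.23. The differences of Gbp7 and Gbp3 were each 0.01, with 95% intervals of -0.33 to 0.36 and -0.39 to 0.40. Both genes showed their lowest value in ARSB-null 4. Gbp4, which lies in the cluster on chromosome 5 between Gbp9 and Gbp10, read 7.21, 8.19 and 7.98 in ARSB-null liver and 7.51, 7.75 and 7.44 in control liver. The ARSB-null values of Gbp4 fell on both sides of the controls, and the difference was 0.23 (95% interval -0.37 to 0.82, adjusted p = 0.989). It rested on single livers, with 0.52 without ARSB-null 4 (adjusted p = 0.672), 0.49 without both arrays numbered 4 (adjusted p = 0.539) and 0.03 without ARSB-null 5.

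**Figure D1:**
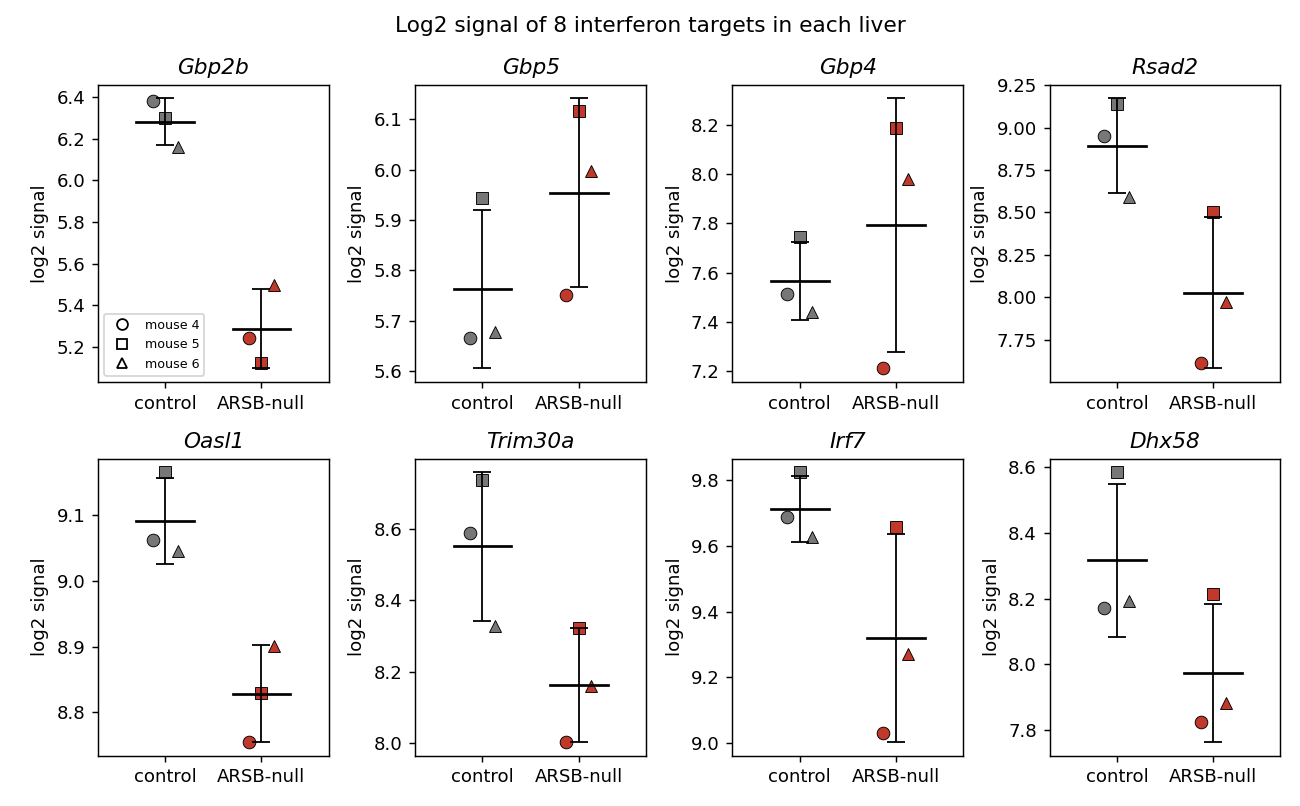
Log2 signal (vertical axis, a separate range for each gene) in control and ARSB-null liver (horizontal axis) for 8 interferon targets, with 1 point per mouse, a line at the group mean and bars of 1 SD (n = 3). The symbol gives the number of the mouse. The ARSB-null values of Gbp2b, 5.12 to 5.50, lie below the control values, 6.16 to 6.38, while for Gbp5 the groups overlap.

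The immunity-related GTPases and the factors behind the interferon-gamma response did not differ beyond their spread. Iigp1, an effector that coats vacuole membranes, read 10.80, 11.19 and 11.07 in ARSB-null mice 4, 5 and 6, and 10.83, 11.06 and 11.06 in controls 4, 5 and 6. Irgm1, a regulator of the same family, read 9.70, 10.36 and 10.34 against 10.26, 10.20 and 10.04. The differences were 0.04 for Iigp1 and -0.04 for Irgm1. For Irgm1 the difference was 0.23 without both arrays numbered 4. Irf1, a factor that interferon-gamma induces directly, read 8.44, 8.81 and 8.69 in ARSB-null liver and 8.54, 8.51 and 8.42 in control liver. Its difference was 0.16 (95% interval -0.13 to 0.45), and a dimmer probe set of Irf1 gave 0.23. Without both arrays numbered 4 the difference of Irf1 was 0.28 (adjusted p = 0.577), and without ARSB-null 5 it was 0.08. Irf8, a factor of myeloid cells, read 8.30, 8.38 and 8.38 against 8.31, 8.29 and 8.17, a difference of 0.10.

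Counted over the group, 0 of 9 interferon-gamma targets passed the adjusted threshold in either direction by limma, where 0.00562% of all probe sets passed as higher and 0.0141% as lower. When only probe sets with 1 symbol were tested, Gbp2b was the single lower call, against backgrounds of 0.124% higher and 0.151% lower. At an unadjusted p under 0.05 the counts were 0 higher and 1 lower, beside 2% and 3.8% of all 19938 genes. The higher count was 1 without ARSB-null 4 (Gbp4) and 2 without both arrays numbered 4 (Gbp4 and Irf1), with Gbp2b the 1 lower in each. Without overlap between the groups there were 0 higher and 1 lower, beside 4.73% and 8.32%. The mean was higher in ARSB-null liver for 7 of the 9 and lower for 2, beside 54.8% of all genes with a lower mean. With array medians centred, 4 of the 9 had a lower mean. The median difference was 0.04, against -0.02 over all genes.

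Type I targets read mostly lower in ARSB-null liver by small amounts. Of 26 measured, 23 had a lower mean, beside the 54.8% of all genes, and the median difference was -0.15. In 12 of the 26 the ARSB-null mouse was lower in all 3 same-numbered pairs, which held for 20.2% of all genes. The count of calls at an adjusted p under 0.05 was 0 by limma and 0 by the methods' own test per gene after adjustment. At an unadjusted p under 0.05 the methods' test gave 2 lower and 0 higher, and limma gave 3 lower (Rsad2, Trim30a and Oasl1) and 0 higher, beside 3.8% and 2% of all genes. The same 3 genes of 26 were those whose groups did not overlap, all lower, beside 8.32% of all genes. With the replicate number as a block, 6 were lower and 1 was higher at an unadjusted p under 0.05, and again 0 passed the adjusted threshold.

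Rsad2, which encodes the antiviral enzyme viperin, had the largest difference of the type I targets. Its values were 7.61, 8.50 and 7.97 in ARSB-null mice 4, 5 and 6, and 8.95, 9.14 and 8.59 in controls 4, 5 and 6. All ARSB-null values were below all control values, with ARSB-null 5 and control 6 the closest. ARSB-null livers averaged 8.03 ± 0.45 (SD, n = 3) against 8.89 ± 0.28 (SD, n = 3) in controls, a difference of -0.87 (SE 0.25), or 1.82-fold lower (95% interval 1.22 to 2.74, unadjusted p = 0.0101, adjusted p = 0.638, limma). Without both arrays numbered 4 the difference was -0.63 (unadjusted p = 0.0688, limma). Cmpk2, a mitochondrial nucleotide kinase gene and the neighbour of Rsad2 on chromosome 12, read 6.76, 6.93 and 6.62 against 7.03, 7.12 and 7.07, a difference of -0.30 (adjusted p = 0.794).

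Trim30a, a member of the tripartite motif family that restrains Toll-like receptor signals, read 8.0, 8.32 and 8.16 in ARSB-null mice 4, 5 and 6, and 8.59, 8.74 and 8.33 in controls 4, 5 and 6. The highest ARSB-null value and the lowest control value nearly met. Its difference was -0.39 (95% interval -0.73 to -0.05, adjusted p = 0.794). Oasl1, an oligoadenylate synthetase-like protein that limits translation of Irf7, read 8.76, 8.83 and 8.90 against 9.06, 9.16 and 9.04. The spread of Oasl1 within each group was small, with SDs of 0.07 and 0.06. Its difference was -0.26 (95% interval -0.49 to -0.03, adjusted p = 0.794).

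The factors gave mixed readings. Irf7, the factor that amplifies type I interferon production, read 9.03, 9.66 and 9.27 in ARSB-null mice 4, 5 and 6, and 9.69, 9.82 and 9.63 in controls 4, 5 and 6. Its groups overlapped at ARSB-null 5, and the difference was -0.39 (95% interval -0.80 to 0.01, adjusted p = 0.843). Irf9 and Stat2, partners in the type I complex, had differences of 0.15 and -0.05. Irf9 was higher in all 3 same-numbered pairs.

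The 4 cytosolic sensors all had lower means, with a median difference of -0.19. Dhx58 (the RNA sensor LGP2) read 7.83, 8.21 and 7.88 in ARSB-null mice 4, 5 and 6, and 8.17, 8.58 and 8.19 in controls 4, 5 and 6, a difference of -0.34 (95% interval -0.73 to 0.04). Ddx58 (the RNA sensor RIG-I) read 9.68, 9.93 and 9.79 against 10.06, 10.02 and 9.87, a difference of -0.18. Ifih1 (the RNA sensor MDA5) read 9.26, 9.45 and 9.30 against 9.37, 9.72 and 9.50, a difference of -0.19. For each of these 3 sensors the ARSB-null mouse was the lower in all 3 same-numbered pairs, yet the groups overlapped. Zbp1, a sensor of Z-form nucleic acid, had a difference of -0.16. The adjusted p of the 4 genes was 0.868 or higher.

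All 12 antiviral effectors had lower means, beside 54.8% of all genes, with a median difference of -0.15 and a range of -0.87 to -0.02. All 12 were again lower with quantile normalization repeated. Centring array medians lowers every difference alike and could not change this count. Control 5 was the highest of all 6 arrays for 9 of the 12 (14.7% of all genes), and ARSB-null 4 the lowest for 7 (20% of all genes). Beyond Rsad2 and Oasl1, the differences were -0.30 for Ifit1, -0.16 for Ifit2 and -0.15 for Ifit3, members of a family that binds viral RNA. They were -0.24 for Mx1 and -0.15 for Mx2, which encode dynamin-like GTPases. Bst2, which tethers virus particles to the cell surface, read 9.84, 10.01 and 9.81 in ARSB-null mice 4, 5 and 6, and 9.88, 10.01 and 9.99 in controls 4, 5 and 6, a difference of -0.08. The oligoadenylate synthetases Oas1a, Oas2 and Oas3 lay between -0.05 and -0.02, and Oasl2 at -0.09. Variation between ARSB-null mice was wide for Mx2 (SD 0.65, against 0.31 in controls) and narrow for Oas3 (SD 0.04, against 0.24 in controls).

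Of the remaining type I targets, Ifi27, a small mitochondrial membrane protein gene, read 9.06, 9.25 and 8.94 in ARSB-null mice 4, 5 and 6, and 9.19, 9.50 and 9.35 in controls 4, 5 and 6, a difference of -0.26 (95% interval -0.57 to 0.05). Ifi35, Rtp4 and Parp14 had differences of -0.17, -0.10 and -0.08. Xaf1, an apoptosis regulator, and Usp18, the protease that removes Isg15 from proteins and dampens type I receptor signals, had higher means, by 0.29 and 0.08. Both were higher in all 3 same-numbered pairs, as Irf9 was, without passing the test. This held for these 3 of the 26 type I targets and for 2819 of all 19938 genes.

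**Figure D2:**
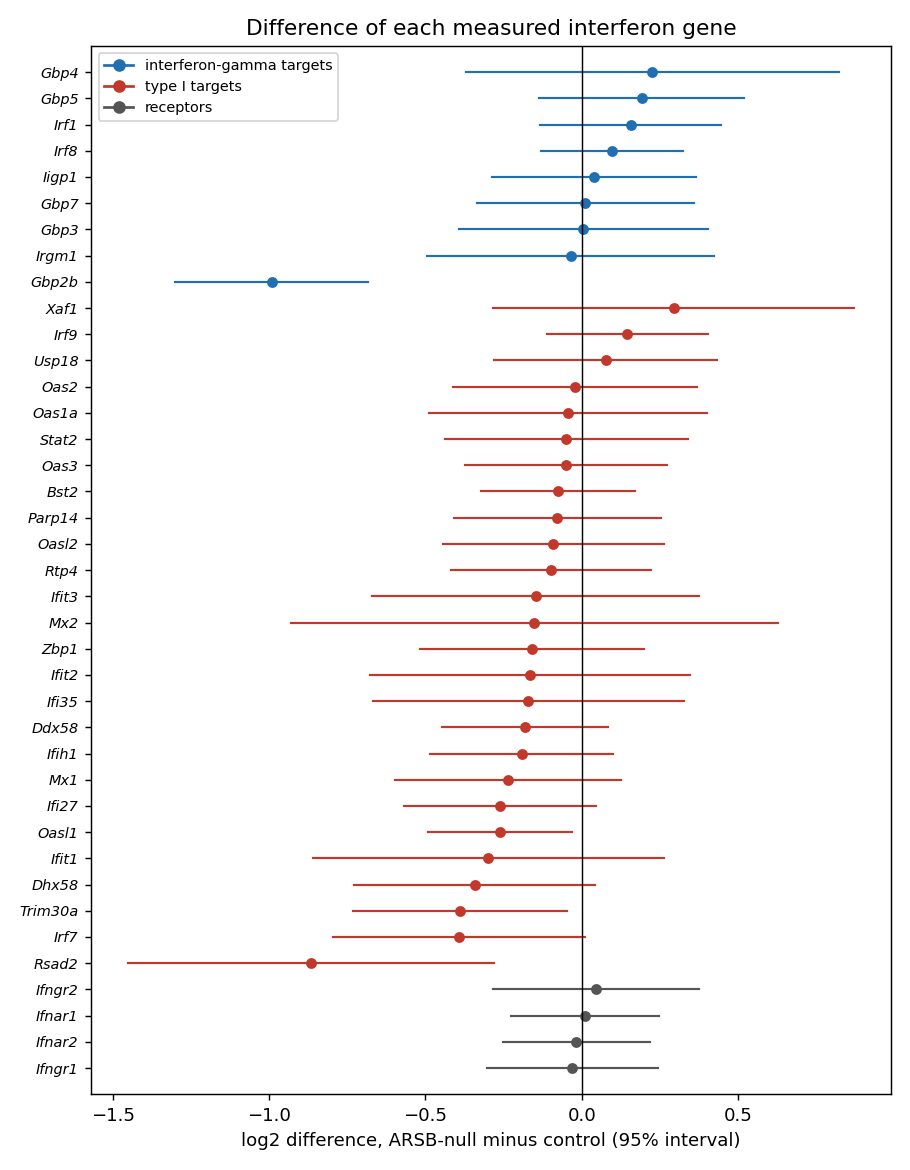
Log2 difference, ARSB-null minus control (horizontal axis), with its 95% interval from limma for each of the 39 measured members, by group and then by difference. The intervals of Gbp2b, Rsad2, Trim30a and Oasl1 lie below 0 and those of the other members include 0.

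How far type I targets read lower depended on single livers. The mean deviation of the 26 genes from their own means was -0.28, 0.12 and -0.08 in ARSB-null mice 4, 5 and 6, and -0.01, 0.26 and -0.01 in controls 4, 5 and 6. Over all genes the same quantity stayed between -0.02 and 0.06. ARSB-null 4 was the lowest of all 6 arrays for 15 of the 26 genes (57.7%, against 20% of all genes), and control 5 was the highest for 17 (65.4%, against 14.7%). The median difference was -0.05 without ARSB-null 4 and -0.03 without control 5, and -0.25 without ARSB-null 5. The number with a lower mean went from 23 to 16 without control 5 and to 18 without ARSB-null 4. Without both arrays numbered 4 the median difference was -0.09, 18 had a lower mean, and 0 type I targets had an unadjusted p under 0.05. Without ARSB-null 4 or without control 5 that count was 1 in each case, and without ARSB-null 5 it was 6.

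ARSB-null 4 was also low for the interferon-gamma targets. Their mean deviations were -0.28, 0.14 and 0.09 in the ARSB-null mice and 0.01, 0.09 and -0.05 in the controls. In 8 of the 9 genes ARSB-null 4 was the lowest ARSB-null array (88.9%, against 35.3% of all genes), and Gbp2b was the exception, with its lowest value in ARSB-null 5. The median difference of the 9 genes was 0.17 without ARSB-null 4 and -0.05 without ARSB-null 5, so its sign turned with 1 liver. The number with a lower mean, 2 of 9 with all livers, was 1 without ARSB-null 4, 5 without ARSB-null 5 and 4 without ARSB-null 6. For Gbp2b the difference was -0.97 without ARSB-null 4 and -0.92 without both arrays numbered 4.

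**Figure D3:**
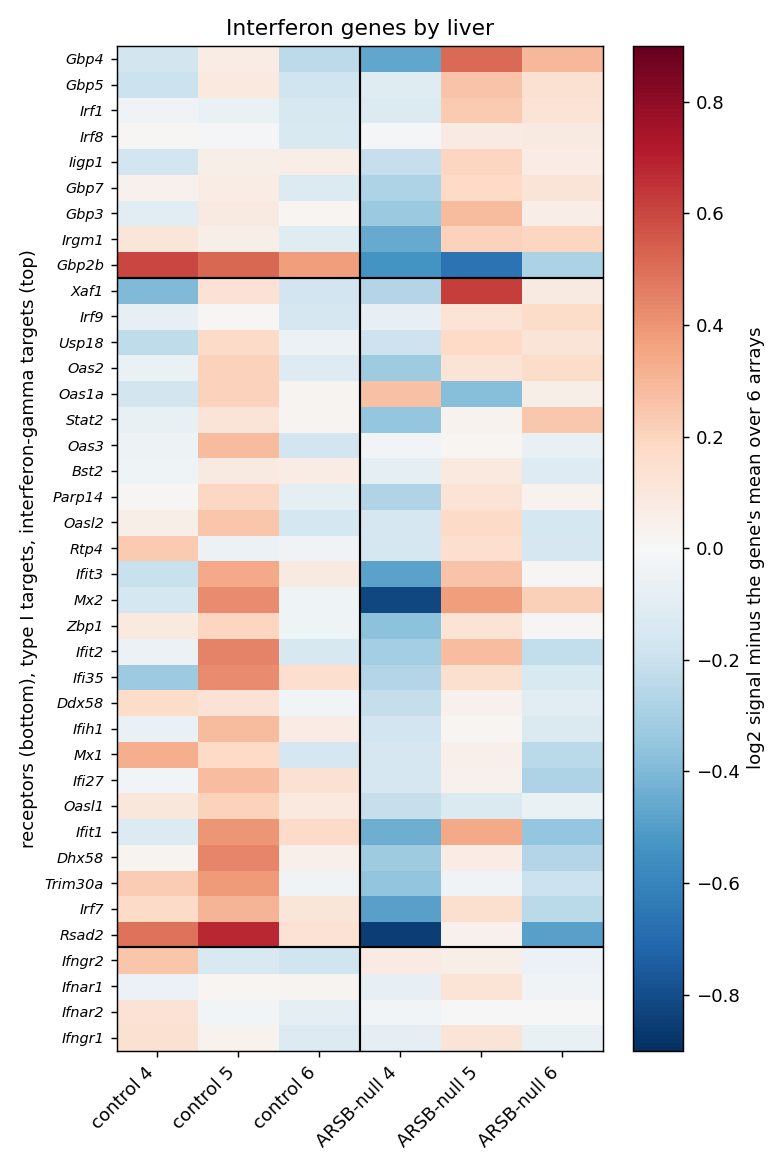
Colour gives the log2 signal minus the gene's mean over 6 arrays, red above and blue below, for each of the 39 members (vertical axis, interferon-gamma targets at the top, then type I targets and receptors) in each liver (horizontal axis). Type I targets average -0.28 in ARSB-null 4 and 0.26 in control 5, and the row of Gbp2b is blue in all 3 ARSB-null livers.

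The receptor chains showed differences near 0, and their 95% intervals all lay within -0.30 to 0.37. Ifnar1 read 9.14, 9.34 and 9.18 in ARSB-null mice 4, 5 and 6, and 9.16, 9.23 and 9.24 in controls 4, 5 and 6. Ifnar2 read 11.30, 11.33 and 11.32 against 11.46, 11.31 and 11.25. Their differences were 0.01 (95% interval -0.23 to 0.25) and -0.02 (-0.25 to 0.22). Ifngr1 read 9.26, 9.46 and 9.28 in ARSB-null liver and 9.48, 9.38 and 9.22 in control liver. Ifngr2 read 10.60, 10.58 and 10.47 against 10.78, 10.39 and 10.35. Their differences were -0.03 (-0.30 to 0.24) and 0.04 (-0.28 to 0.37). At an unadjusted p under 0.05 the count was 0 of 4 in both directions.

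Among 131 further genes of the pathway, listed by role, 108 were measured, and 0 passed the adjusted threshold by limma. At an unadjusted p under 0.05, 3 of the 108 were higher and 6 lower, beside 2% and 3.8% of all genes, and the median difference was -0.05. The lower count was 2 without ARSB-null 4 and 2 without control 5, and 7 without ARSB-null 5 and 7 with array medians centred. With the replicate block on probe sets of 1 symbol, 13 were lower and 7 higher. The higher count was 6 without ARSB-null 4 and 6 with the replicate block, 8 with array weights, 1 without ARSB-null 5, 1 without control 5, and 0 without control 6 or under either other scaling. The ligand list (15 of 19 measured) had 0 in either direction. Ifng read 6.02, 5.82 and 5.81 in ARSB-null liver and 5.99, 5.95 and 5.82 in control liver, a difference of -0.04. Ifnb1 read 4.95, 4.64 and 4.82 against 5.575, 4.78 and 5.12, a difference of -0.36 (95% interval -0.85 to 0.14). Every value of these 2 ligands lay below the median signal of the arrays (6.50 to 6.60), so a change of either ligand could be missed. The kinases, STAT factors, interferon regulatory factors and brakes (15 of 17 measured) also had 0. Of the upstream sensors and adaptors (10 of 13 measured), 1 was higher. It was Tlr4, the lipopolysaccharide receptor, which read 6.44, 6.61 and 6.41 against 5.80, 6.30 and 6.09, a difference of 0.42 (adjusted p = 0.762).

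Other Gbp and immunity-related GTPase genes (6 of 13 measured) had 0 in either direction, with a median difference of 0.12. The 3 Gbp genes among them, named after their values were seen, were Gbp8, Gbp9 and Gbp11, with differences of 0.26, 0.25 and 0.05 and overlapping groups. Of the other interferon targets (63 of 70 measured), 45 had a lower mean, beside 54.8% of all genes. Of these 63, 6 were lower and 2 higher at an unadjusted p under 0.05, beside 3.8% and 2% of all genes. Over all 108 measured pathway genes, 64 had a lower mean. That number was 50 without both arrays numbered 4, 53 with array weights and 76 with array medians centred. Isg20, an exonuclease that degrades viral RNA, read 8.27, 7.89 and 7.92 in ARSB-null mice 4, 5 and 6, and 9.10, 8.96 and 8.48 in controls 4, 5 and 6. All 3 ARSB-null values lay below the controls, with a difference of -0.82 (95% interval -1.27 to -0.36, adjusted p = 0.501). With the replicate number as a block and probe sets of 1 symbol only, its adjusted p was 0.0318, past the threshold. Without both arrays numbered 4 the difference of Isg20 was -0.81. The next by p were Ifi205, an intracellular DNA-sensor family member (-0.49), Cmpk2 (above) and Lgals3bp, a secreted galectin-binding protein (-0.35). Their adjusted p values were 0.766, 0.794 and 0.794. Ifi205 read 6.70, 7.19 and 6.90 in ARSB-null liver and 7.20, 7.68 and 7.38 in control liver. Lgals3bp read 9.89, 10.13 and 10.24 against 10.52, 10.51 and 10.28.

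**Figure D4:**
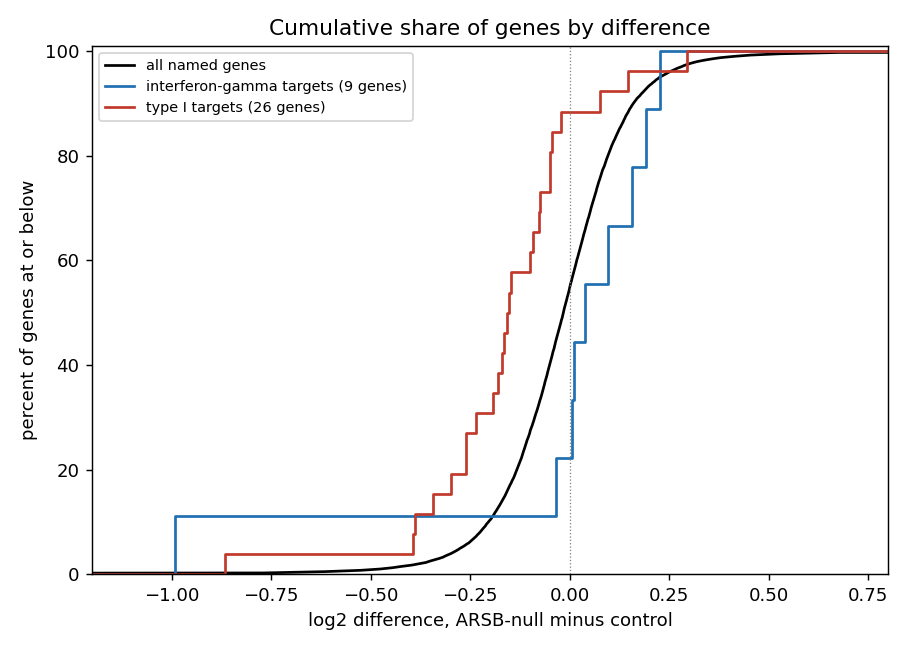
Cumulative share of genes in percent (vertical axis) against log2 difference, ARSB-null minus control (horizontal axis), for all 19938 genes, the 9 interferon-gamma targets and the 26 type I targets. The type I targets, with a median of -0.15, lie to the left of all genes, with a median of -0.02, and the interferon-gamma targets have a median of 0.04.

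In whole liver, fewer cells of a type and less RNA per cell cannot be told apart. Some cell markers had an unadjusted p under 0.05, which held for 2% of all genes as higher and 3.8% as lower. No marker passed the adjusted threshold by limma, and the smallest adjusted p was 0.099 (Jchain, higher). Hepatocyte markers (9 of 10 measured) averaged 13.54 to 13.65 in ARSB-null and 13.56 to 13.61 in control livers, and 0 had an unadjusted p under 0.05. Of 13 Kupffer cell and macrophage markers, Cd68 and C1qa were higher and Folr2, Cd163, Adgre1 and Csf1r lower at that level, with means of 8.90 to 8.99 against 8.90 to 9.23. The plasmacytoid dendritic cell markers (5 of 6 measured, Bst2 among them) averaged 7.15 to 7.19 against 7.36 to 7.51, with Ccr9 lower. Ccr9 was dim, at 4.41 to 4.69 in ARSB-null livers, and differed by -0.84. The rest of that list differed by -0.14 to -0.03, with overlapping groups. Monocyte and neutrophil markers (9 of 10) averaged 5.50 to 5.57 against 5.59 to 5.79, with Ngp lower. T and NK cell markers (10 of 11) averaged 5.99 to 6.07 against 5.88 to 6.21, with 0 in either direction. The B and plasma cell list (6 of 7) had 1 higher and 2 lower, sinusoidal endothelium (8 of 8) 1 and 1, cholangiocytes (4 of 5) 0 and 1, and stellate cells (8 of 8) 0 and 0. Both measured erythroid markers, of 7 listed, were lower, with means of 8.30 to 8.71 against 9.42 to 9.85. The part of these cell types in the interferon readings was not tested.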

How the data were processed

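Total RNA from 6 livers, 3 ARSB-null and 3 control, was labelled with biotin and hybridized 1 liver to an array. The authors deposited log2 signals per probe set, made in Partek with RMA per the labels (background correction, quantile normalization, summary of probes). The software versions were not given in the sources used here. The paper's methods name the 2.0 version of the mouse gene array, whereas the row identifiers matched the platform annotation of the 1.0 version. Of 35556 probe sets, 21789 are listed with 1 gene symbol, 1621 with several, and 12146 are not named here. A gene was read from its 1-symbol probe set with the highest mean over the 6 arrays. Array signals have no count depth, and the number of arrays limits the precision.

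Groups were compared with limma 3.58.1 in R 4.3.3 (lmFit and eBayes, two-sided) on the deposited log2 values of all probe sets, with Benjamini-Hochberg adjustment over all of them and a threshold of 0.05. The script was tested on simulated data. Fold is 2 to the power of the absolute log2 difference, with the direction given in words. Members and lists were chosen with earlier results of these data known, so counts over a list are descriptions without a test. Genes given in full were every measured Gbp member, the other interferon-gamma targets, the 8 type I targets of smallest p and the 3 brightest, the receptors, up to 4 genes per pathway list with an unadjusted p under 0.05, and Ifng and Ifnb1 in any case.

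The alternatives were the ANOVA per gene named in the methods, probe sets with 1 symbol only, probe sets above the median signal, other scalings, array weights, a trend and robust prior, the mean over the probe sets of a gene, leaving out arrays, and the replicate number as a block. Same-numbered mice deviated together from their group means (correlations 0.396, 0.159 and 0.193 for numbers 4, 5 and 6 over probe sets, all over 0.1). This met the rule for pairing, although the labels do not say what a number shares. ARSB-null 6 and control 5, of unlike number, correlated at 0.220, above the values for numbers 5 and 6. Pairing of those mice by number is therefore not singled out by these correlations. Promoter sequences are from RefSeq on GRCm38.p6. Genes sharing a probe set were left out. 1 further gene that the naming rule lists is not reported here.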

Additional observations from a re-analysis of the deposited data

How the results depend on the processing

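Over the genes named in full, 429 comparisons with an alternative kept their direction and their side of the threshold, 3 kept their direction and newly passed it, and 27 had the opposite sign with none past the threshold. The 3 were Gbp2b with probe sets of 1 symbol only (adjusted p = 0.0198) and with the replicate block on those probe sets (0.0196), and Isg20 in the latter (0.0318), all by limma. These settings therefore gave 1 lower call among interferon-gamma targets each, and the latter 1 lower call among the other pathway genes, where the deposited table as a whole gave 0. With the replicate block on all probe sets the adjusted p of Gbp2b was 0.340, and the block changed no call of a member at the adjusted threshold. The block on 1-symbol probe sets, and leaving out both arrays numbered 4, were chosen after seeing the data. Without those arrays the median of the other pathway genes was 0.0146 and Arsb differed by -2.67 (adjusted p = 0.0534). Leaving out each array in turn, Arsb lay between -2.67 and -2.58, the median of the interferon-gamma targets between -0.05 and 0.17, that of the type I targets between -0.25 and -0.03, that of the receptors between -0.05 and 0.04 and that of the other pathway genes between -0.08 and -0.01. The number of adjusted calls in these 4 groups was 0 in each such fit. The opposite signs came from 8 genes with differences near 0. With array medians centred they were -0.027 for Gbp3, -0.0202 for Gbp7 and -0.0223 for Ifnar1, and with quantile normalization repeated -0.0287 for Gbp3. With array weights they were 0.1144 for Irgm1, 0.0465 for Ifnar2 and 0.0607 for Ifngr1, and without both arrays numbered 4 they were 0.2293, 0.0517 and 0.0689 for the same genes. Leaving out each array in turn gave -0.1368 to 0.1748 for Gbp3, -0.0746 to 0.1534 for Gbp7, -0.1497 to 0.183 for Irgm1, -0.0482 to 0.15 for Iigp1, -0.0483 to 0.0491 for Ifnar1, -0.0622 to 0.043 for Ifnar2, -0.0991 to 0.0314 for Ifngr1 and -0.035 to 0.181 for Ifngr2. The cause was not tested. Centring array medians moved the median of all probe sets by -0.03 and repeating quantile normalization by -0.02. The precision is limited by 3 mice a group, and probe sets shared between paralogs hide 5 of the 45 genes. Identity between Gbp proteins was not run.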
